A study of Mus musculus with 51 samples.

Results

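Neuromodulator receptors are the proteins through which serotonin, acetylcholine, noradrenaline, dopamine, histamine, opioid peptides and endocannabinoids act on hippocampal neurons. Their genes were taken by symbol from the platform's annotation, as every gene with a single symbol in the receptor families of these transmitters, with the probe set of the highest mean over all arrays standing for each gene. The pattern for adenosine receptors found no gene. There were 45 such genes among 11807 genes with a single symbol. They comprised 13 serotonin receptor genes, 14 nicotinic and 3 muscarinic acetylcholine receptor genes, 4 opioid, 4 histamine, 3 dopamine, 2 adrenergic and 2 cannabinoid receptor genes.

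The rTg4510 mouse carries a human tau transgene with the P301L mutation behind a tetracycline-responsive element (TRE-htau, from FVB/N breeders) and a tetracycline transactivator (tTA, from breeders of another inbred strain) driven by the CaMKIIα promoter, which is active mainly in excitatory neurons of the forebrain. Littermates with tTA alone and littermates with neither transgene (double negative, DN) served as controls, so that rTg4510 and tTA mice both carried the transactivator. All were labelled female and 4.5 months old, with 6 DN, 5 tTA and 6 rTg4510 mice. Pyramidal cells of CA1, pyramidal cells of CA3 and granule cells of the dentate gyrus (DG) were captured by laser as whole layers from each mouse and hybridised to 51 Affymetrix HT-MG-430A arrays, 1 for each of the 17 mice and 3 subfields. Whether the signal of a layer falls with fewer cells of a type or with less RNA per cell cannot be told apart in such tissue.

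Most of these receptors are coupled to G proteins. Serotonin receptors of the first type, the even-numbered muscarinic receptors, the opioid receptors and the CB1 receptor lower cyclic AMP and open inwardly rectifying potassium channels, whereas the odd-numbered muscarinic receptors activate phospholipase C. The nicotinic receptors and the third type of serotonin receptor are instead ion channels built from subunits, several of which (Chrna1, Chrnb1, Chrnd, Chrne and Chrng) are known from muscle. In the hippocampus, cholinergic and serotonergic fibres act on pyramidal cells, granule cells and interneurons through different members of these families.

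The promoters of Chrm3, Htr1f and Oprd1 are shown because these genes passed the test in more than 1 subfield comparison. Each runs from 250 bases before to 50 bases after the start used for the promoter, given 5′ to 3′ on the minus strand of GRCm38.p6. They come from RefSeq, at chr13:10360754-10361053 for Chrm3, chr16:65105735-65106034 for Htr1f and chr4:132144437-132144736 for Oprd1. For Htr1f and Oprd1 this start is that of the gene. The Chrm3 window lies inside the annotated gene, which begins at position 10361062 on this strand, so its start is an inner one. Capitals mark E-boxes (CANNTG) and GC boxes (GGGCGG, or CCGCCC where the match is on the other strand).
Chrm3: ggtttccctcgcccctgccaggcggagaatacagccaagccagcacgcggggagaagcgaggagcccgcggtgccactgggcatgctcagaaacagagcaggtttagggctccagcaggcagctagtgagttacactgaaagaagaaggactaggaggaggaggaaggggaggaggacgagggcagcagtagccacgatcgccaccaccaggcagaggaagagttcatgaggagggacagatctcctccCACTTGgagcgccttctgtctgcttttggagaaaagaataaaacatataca
Htr1f: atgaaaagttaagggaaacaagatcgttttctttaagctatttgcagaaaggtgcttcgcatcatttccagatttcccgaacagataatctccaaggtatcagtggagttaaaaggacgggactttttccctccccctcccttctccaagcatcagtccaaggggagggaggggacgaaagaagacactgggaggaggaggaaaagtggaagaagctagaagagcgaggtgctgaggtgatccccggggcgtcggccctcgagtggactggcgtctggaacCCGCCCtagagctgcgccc
Oprd1: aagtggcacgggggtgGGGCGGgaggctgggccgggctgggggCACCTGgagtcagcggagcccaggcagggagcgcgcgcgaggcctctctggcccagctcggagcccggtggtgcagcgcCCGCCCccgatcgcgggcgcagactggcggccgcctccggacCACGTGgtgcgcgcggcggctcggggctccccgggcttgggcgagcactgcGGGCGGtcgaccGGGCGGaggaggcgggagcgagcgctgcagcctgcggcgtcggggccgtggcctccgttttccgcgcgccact
The Oprd1 promoter held 2 E-boxes and 4 GC boxes and had a GC content of 79.3%, higher than 98.7% of the promoters in the table. The Chrm3 promoter held 1 E-box and no GC box at 57.3% GC, and the Htr1f promoter held 1 GC box and no E-box at 53% GC. E-boxes were found in 72.3% of all 32851 promoters and in 32 of the 50 promoters of the 35 receptor genes that matched the table. GC boxes were found in 35.7% of all promoters and in 22 of these 50. These matches are to letters, and no binding was measured.

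Signals are log2 values, and the level of a gene was compared only with the same gene in other arrays. Of the 45 genes, 36 had a mean signal below 3.10, the median over all probe sets, and 9 lay above it, namely Htr1a, Adra2c, Chrm1, Chrm3, Chrna6, Chrna7, Oprd1, Oprl1 and Cnr1. Most of the receptor genes were thus measured in the lower part of the array's range. The medians of the 51 arrays ran from 2.91 to 3.12.

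Some arrays stood apart or went against their labels. Prnp, which separated the other rTg4510 arrays (9.59 to 10.55) from the other DN and tTA arrays (6.57 to 8.76), went against the genotype label in 5 arrays, those of all 3 subfields of DN mouse 4, the DG of DN mouse 5 and the DG of rTg4510 mouse 3. Xist, a transcript of the X chromosome that females silence, was low in 3 arrays, the CA1 and CA3 of DN mouse 5 and the DG of rTg4510 mouse 3. The CA3 and DG arrays had the markers of their own subfield as the highest of 3 marker lists in 17 of 17 arrays each. The CA1 markers Wfs1, Pou3f1 and Dcn were the highest list in 9 of 17 CA1 arrays. The CA3 markers were the highest in the other 8 (DN mice 1, 2 and 5, tTA mice 1 and 4, and rTg4510 mice 1, 3 and 6). The mean of the CA3 markers, set to 0 over all arrays, ran from -1.14 to 0.97 in these 8. In the CA3 arrays it ran from 0.56 to 1.39, which only rTg4510 mice 1 and 6 reached. Dcn was low in CA1, CA3 and DG (medians 1.995, 2.124 and 1.921), so the CA1 list rested mainly on Wfs1 and Pou3f1. The values without the 5 arrays, or without the 8, are given beside the results that rest on them.

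Between subfields, 7 of the 45 receptor genes passed the test in at least 1 comparison, 3 of them in 2 comparisons, and 38 passed in none. The 51 arrays were fitted with limma with the mouse as a block, and p-values were adjusted by Benjamini-Hochberg over all 22626 probe sets, with 0.05 as the threshold. Oprd1, Htr1f and Htr1b were higher in CA1 than in CA3, which is 3 of 45 genes (6.67%) beside 4.68% of all probe sets called in this comparison (2.46% higher and 2.22% lower). Chrm3, Htr1f, Oprd1 and Oprl1 were higher in CA1 than in the DG, 4 of 45 genes (8.89%) beside 10.9% of all probe sets (5.6% higher and 5.33% lower). Chrm3 and Chrna7 were higher and Htr4 was lower in CA3 than in the DG, 3 of 45 genes (6.67%) beside 13.9% of all probe sets (7.27% higher and 6.59% lower). The share of receptor genes was above that of all probe sets in CA1 minus CA3, where it rested on 3 genes, and under it in the comparisons with the DG. Ranges without overlap were found in 0 of the 45 genes, beside 0.00884% of all probe sets for CA1 and CA3, 0.177% for CA1 and the DG and 0.486% for CA3 and the DG.

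**Figure D1:**
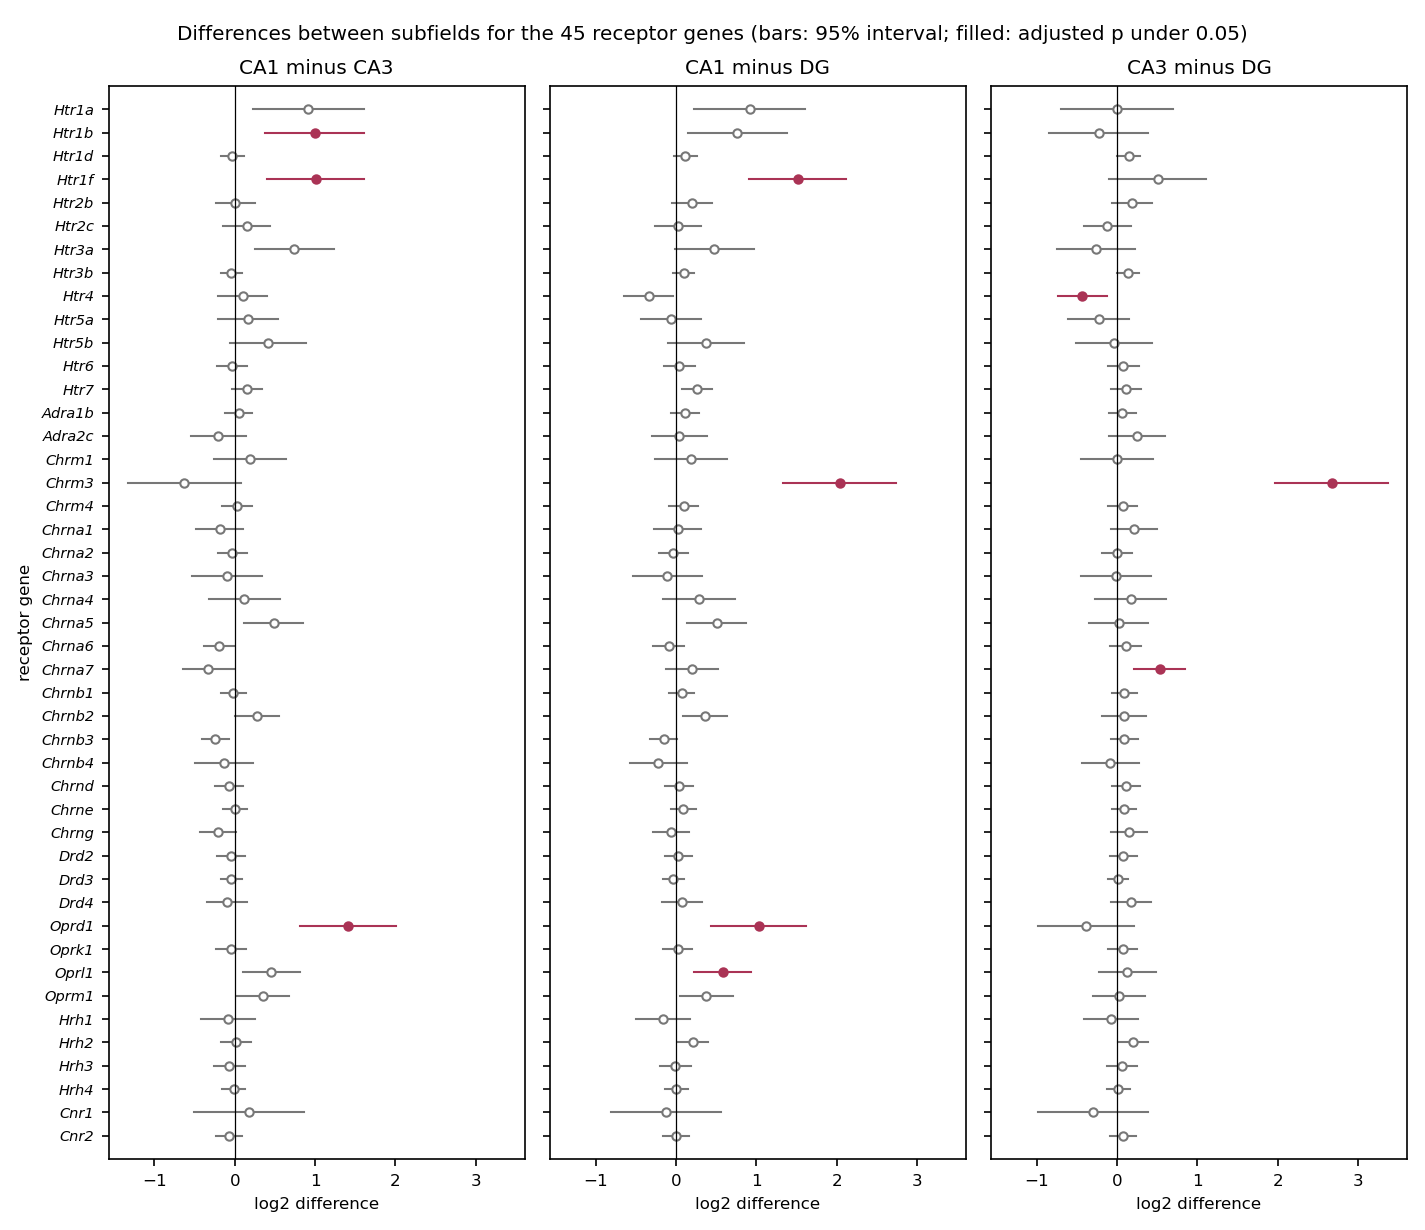
Differences in log2 signal between subfields for the 45 receptor genes, with 95% intervals from limma over 51 arrays and filled symbols for an adjusted p under 0.05. Chrm3 stands out at 2.04 for CA1 minus DG and 2.67 for CA3 minus DG, and most other intervals include 0.

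Chrm3, the muscarinic receptor that activates phospholipase C and raises calcium, had the largest subfield difference among the 45 genes. Its signal ran from 2.23 to 6.38 in CA1 with a median of 4.76, from 2.57 to 6.77 in CA3 with a median of 5.38, and from 1.75 to 4.17 in the DG with a median of 2.26. The pyramidal layers were high and the granular layer low, with an overlap made by low CA1 arrays of DN mouse 1, tTA mouse 1 and tTA mouse 4, a low CA3 array of tTA mouse 5 and high DG arrays of rTg4510 mice 1 and 4 and tTA mouse 3. The low CA1 arrays are among the 8 without CA1 markers as their highest list.

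Chrm3 was higher in CA3 than in the DG by 2.67 (SE 0.35) in 16 of 17 mice (limma, adjusted p = 4.0e-07) and higher in CA1 than in the DG by 2.04 (SE 0.35) in 15 of 17 mice (adjusted p = 5.6e-05). Its CA1 and CA3 levels did not pass the test, with CA1 minus CA3 at -0.63 and a 95% interval from -1.33 to 0.07. Both calls against the DG were kept without any single mouse and without the 5 arrays, and that of CA1 was kept without the 8 CA1 arrays. Neither of the other muscarinic genes passed the test. Chrm1, the main muscarinic receptor of forebrain pyramidal cells, had a median of 4.56 in CA1, 4.38 in the DG and 4.73 in CA3. Chrm4, which lowers cyclic AMP, had medians of 1.62, 1.56 and 1.61 in the same order.

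**Figure D2:**
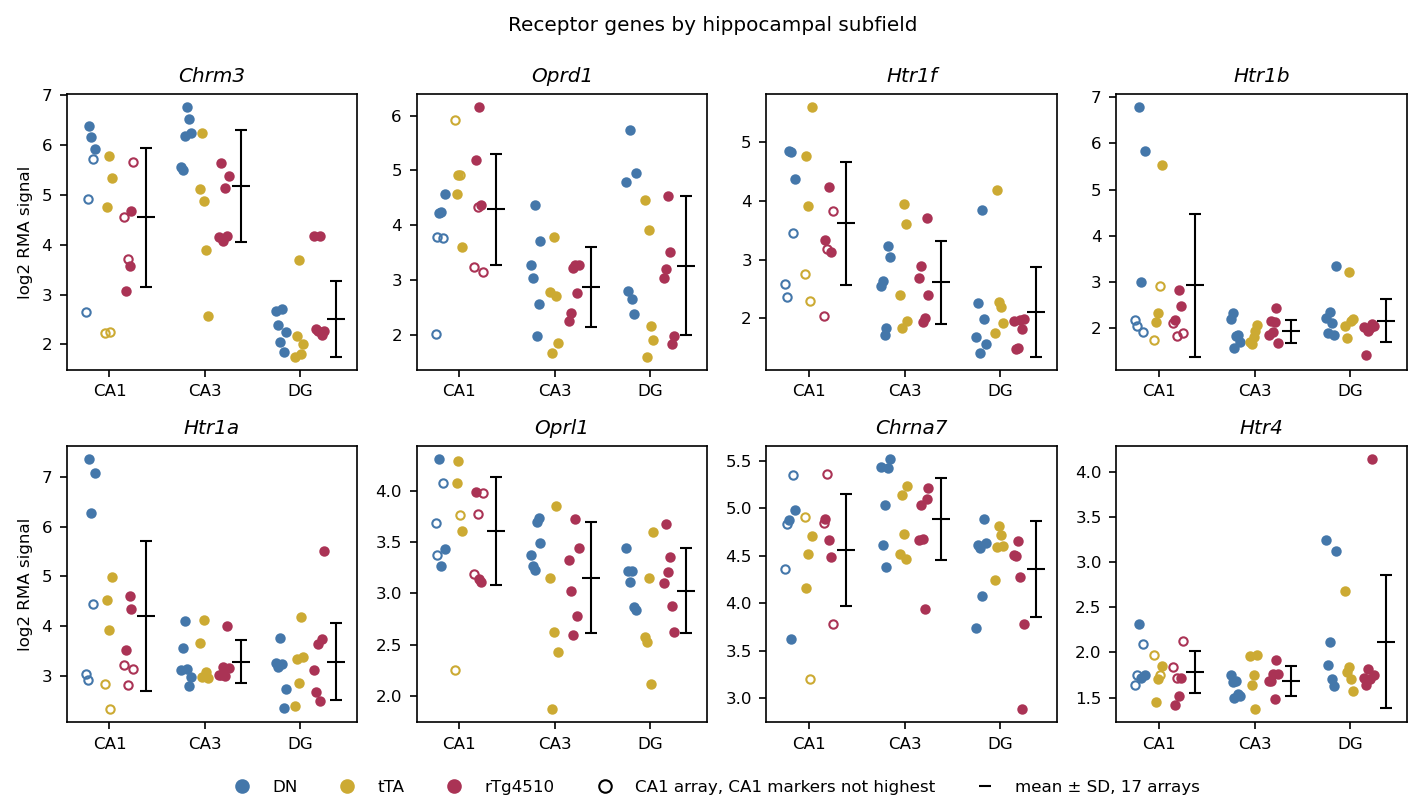
Log2 signals of 8 receptor genes in each array by subfield, coloured by genotype, with the mean and SD of 17 arrays beside each column and open circles for the 8 CA1 arrays whose CA1 markers were not the highest list. Chrm3 has a mean of 2.51 in the DG against 4.55 in CA1 and 5.18 in CA3, and the high CA1 values of Htr1a and Htr1b are mostly filled circles.

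Among serotonin receptor genes, the genes called higher in CA1 were Htr1f and Htr1b, and the gene called higher in the DG than in CA3 was Htr4. Htr1f, a receptor that lowers cyclic AMP, ran from 2.03 to 5.61 in CA1 (median 3.46), from 1.71 to 3.95 in CA3 (median 2.55) and from 1.41 to 4.18 in the DG (median 1.96). The groups overlapped, but CA1 was above the DG within every mouse. The difference of CA1 from the DG was 1.52 (SE 0.30, 17 of 17 mice, adjusted p = 0.000413 by limma) and that from CA3 was 1.01 (SE 0.30, 12 of 17 mice, adjusted p = 0.0410). The call against CA3 was lost without any 1 of 9 of the 17 mice, with adjusted p up to 0.107, and without the 5 arrays, at 0.89 with an adjusted p of 0.0986. CA3 and DG levels of Htr1f differed by 0.51, with a 95% interval that included 0.

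Htr1b, the receptor that limits release from serotonergic and other terminals, ran from 1.74 to 6.80 in CA1 (median 2.19), from 1.58 to 2.44 in CA3 (median 1.86) and from 1.43 to 3.34 in the DG (median 2.06). Only 3 CA1 arrays, of DN mouse 3, DN mouse 6 and tTA mouse 5, lay above 5, and the other 14 were at or below 2.99. The difference of CA1 from CA3 was 0.99 (SE 0.30, higher in 14 of 17 mice, adjusted p = 0.0497 by limma). This call was lost without any 1 of 14 of the 17 mice, with adjusted p up to 0.137, and without the 5 arrays, at 0.98 with an adjusted p of 0.0924.

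Htr4, which raises cyclic AMP, ran from 1.37 to 1.97 in CA3 (median 1.69) and from 1.58 to 4.14 in the DG (median 1.78). The medians were close, and the difference was carried by a few DG arrays with high values. CA3 was lower than the DG by 0.43 (SE 0.15, lower in 14 of 17 mice, adjusted p = 0.0479 by limma). The call was lost without any 1 of 11 of the 17 mice, with adjusted p up to 0.115.

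Htr1a, the receptor that hyperpolarises pyramidal cells through potassium channels, was named after its values were seen. It ran from 2.32 to 7.38 in CA1 (median 3.92), from 2.78 to 4.13 in CA3 (median 3.11) and from 2.34 to 5.52 in the DG (median 3.24). CA1 arrays held both the lowest and the highest signals. The difference of CA1 from CA3 was 0.91 (SE 0.34, higher in 10 of 17 mice) with an adjusted p of 0.139 by limma, and that from the DG was 0.92 with an adjusted p of 0.0836. A second probe set of Htr1a gave 0.36 and 0.32 for these differences.

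The CA1 arrays with CA1 markers held most of these high signals. In the 9 arrays whose CA1 markers were the highest list, Pou3f1, a transcription factor of CA1 pyramidal cells, lay between 5.25 and 8.38 and Htr1a between 3.51 and 7.38. In the other 8 CA1 arrays Pou3f1 lay between 1.58 and 2.96 and Htr1a between 2.32 and 4.44. The ranges of Pou3f1 did not meet and those of Htr1a did. Pou3f1 is one of the markers by which these arrays were split, so its separation was largely set in advance.

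Without these 8 CA1 arrays, an alternative chosen after seeing the data, 6 receptor genes were higher in CA1 than in CA3, beside 5.08% of all probe sets. The CA1 arrays kept were those with high CA1 markers, so genes that go with these markers are favoured in advance. Htr1a itself stood on the list of CA1 markers and was left out of the score only as a receptor gene. The calls of this fit are therefore no separate support for a CA1 difference. Htr1a was higher by 1.94 (SE 0.35, limma, adjusted p = 0.000544), Htr1b by 1.68 (adjusted p = 0.00701), Htr1f by 1.67 (adjusted p = 0.00356) and Oprd1 by 1.78 (adjusted p = 0.000791). The further genes were Htr3a, an ion channel subunit of interneurons, by 1.18 (adjusted p = 0.0117) and Chrna5, an accessory nicotinic subunit, by 0.93 (adjusted p = 0.0102). Against the DG, 6 genes were higher in CA1, beside 5.79% of all probe sets, namely Htr1a, Htr1b, Htr1f, Chrm3, Chrna5 and Oprd1. Oprl1 was then no longer called against the DG, at 0.69 with an adjusted p of 0.0873.

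**Figure D3:**
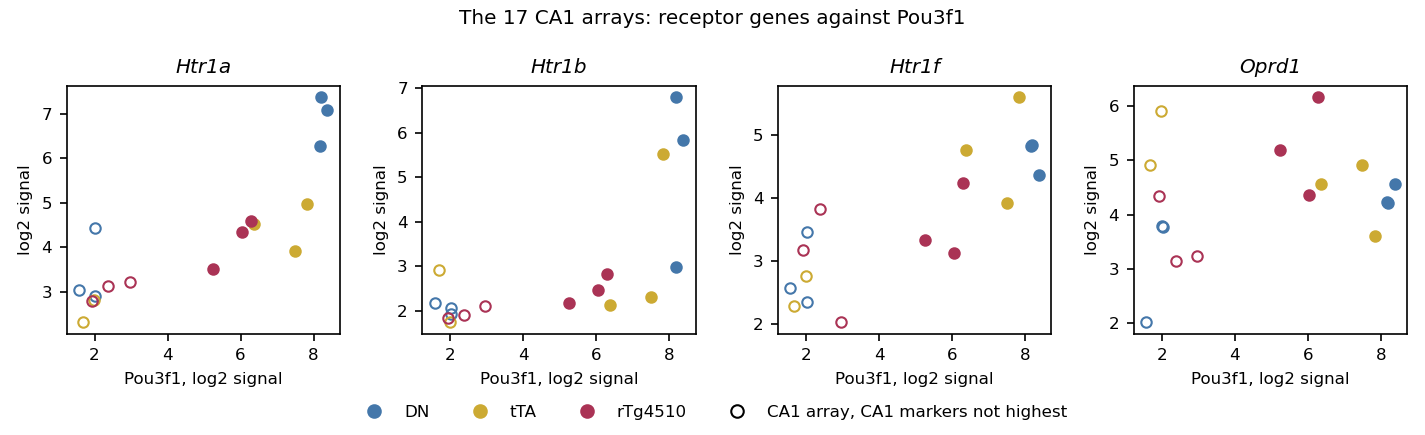
Log2 signals of Htr1a, Htr1b, Htr1f and Oprd1 against Pou3f1 in the 17 CA1 arrays, coloured by genotype, with open circles for the 8 arrays whose CA1 markers were not the highest list. Pou3f1 is itself one of the CA1 markers that set the open and filled circles. Open circles lie below 3 for Pou3f1, and Htr1a reaches 7.38 among the filled circles and 4.44 among the open ones. Oprd1 runs from 3.61 to 6.16 among the filled circles and from 2.02 to 5.91 among the open ones.

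The remaining 9 serotonin receptor genes passed in no comparison of all arrays. Htr3a ran from 1.46 to 4.84 in CA1 and from 1.30 to 2.10 in CA3, a difference of 0.74 (SE 0.24) with an adjusted p of 0.0716 by limma. Htr7, which raises cyclic AMP, was higher in CA1 than in the DG by 0.27 (SE 0.09) with an adjusted p of 0.0533. Over the 13 genes, 10 had a positive CA1 minus CA3 difference, with a median of 0.15 beside -0.03 for all probe sets.

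Among opioid receptor genes, Oprd1 and Oprl1 were called and Oprm1 and Oprk1 were not. Oprd1, the delta receptor for enkephalins, is known in the hippocampus mainly from interneurons. It ran from 2.02 to 6.16 in CA1 (median 4.34), from 1.67 to 4.37 in CA3 (median 2.79) and from 1.60 to 5.73 in the DG (median 3.03). CA1 arrays were mostly above CA3 arrays, and DG arrays spanned nearly the range of both.

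Oprd1 was higher in CA1 than in CA3 by 1.41 (SE 0.29, 14 of 17 mice, limma, adjusted p = 0.00182) and higher than in the DG by 1.03 (SE 0.29, 13 of 17 mice, adjusted p = 0.0165). Both calls were kept without any single mouse. Markers of inhibitory interneurons moved with Oprd1 and Htr3a between CA1 and CA3. Of 19 such markers measured, 14 were higher in CA1 than in CA3, with a median of 0.57. Htr3a is itself on this list and counts among the 14. The test was passed upward by 5 and downward by 1, Htr3a not among them, beside 2.46% and 2.22% of all probe sets. Between CA1 and the DG, where Oprd1 was also higher in CA1, the markers were called in both directions. Cck, Kit, Pvalb and Vip were higher in CA1, and Calb2, Gad1, Npas1, Npy and Reln were lower. Of all probe sets, 5.6% were called higher and 5.33% lower there. The mean of 18 of these markers, set to 0 over all arrays and without Htr3a, ran from -0.48 to 0.70 in CA1, from -0.73 to 0.09 in CA3 and from -0.45 to 0.85 in the DG. Gad1, which makes GABA, had medians of 7.36, 6.22 and 7.84 in the same order. The part of interneuron RNA in the result was not tested.

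Oprl1, the nociceptin receptor, ran from 2.25 to 4.31 in CA1 (median 3.69), from 1.87 to 3.85 in CA3 (median 3.26) and from 2.11 to 3.68 in the DG (median 3.11). The ranges overlapped widely. CA1 was above the DG by 0.58 (SE 0.17, 15 of 17 mice, limma, adjusted p = 0.0246). This call was lost without DN mouse 3, DN mouse 5 or rTg4510 mouse 6, with adjusted p up to 0.0583. Its other probe sets disagreed, with CA1 minus DG at 0.71 (adjusted p = 0.00539) in one and 0.10 (adjusted p = 0.853) in the other. Oprm1, the mu receptor, was at 0.35 for CA1 minus CA3 and 0.38 for CA1 minus DG, with adjusted p of 0.262 and 0.142.

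Of the 14 nicotinic subunit genes, 1 passed the test in 1 comparison. Chrna7, the subunit of calcium-permeable nicotinic channels, ran from 3.21 to 5.36 in CA1 (median 4.71), from 3.95 to 5.52 in CA3 (median 5.03) and from 2.89 to 4.89 in the DG (median 4.58). CA3 arrays sat highest, though the ranges overlapped. CA3 was above the DG by 0.53 (SE 0.16, 14 of 17 mice, limma, adjusted p = 0.0204), and the call was lost without DN mouse 1 or rTg4510 mouse 5, with adjusted p up to 0.0537. Chrna4 and Chrnb2, whose products form the main high-affinity nicotinic receptor of the brain, were at 0.12 and 0.28 for CA1 minus CA3 and at 0.29 and 0.37 for CA1 minus DG, and neither passed. Chrna5 was at 0.49 and 0.51, with adjusted p of 0.137 and 0.0655. The 5 subunit genes known from muscle had CA1 means from 1.58 (Chrnb1) to 2.66 (Chrne), and none was called. The calls of Oprd1, Oprl1, Chrna7 and Htr4 were kept without the 5 arrays.

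None of the adrenergic, dopamine, histamine and cannabinoid receptor genes passed the test between subfields. Cnr1, the CB1 receptor of inhibitory and excitatory terminals, had a median of 6.21 in CA1, 5.93 in the DG and 5.64 in CA3, with CA1 minus CA3 at 0.18 and a 95% interval from -0.52 to 0.87. Adra2c, which lowers cyclic AMP in response to noradrenaline, had means of 3.92 in CA1, 3.88 in the DG and 4.13 in CA3. Hrh2, a histamine receptor that raises cyclic AMP, was above the DG by 0.21 in CA1 and by 0.19 in CA3, with adjusted p of 0.153 and 0.171. Drd2, Drd3 and Drd4 differed by at most 0.18 between subfield means.

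The genes that act with these receptors were described from lists chosen with earlier results known. Of 44 genes of G protein subunits and their regulators, 2 were higher and 3 lower in CA1 than in CA3. In each of CA1 and CA3, 4 were higher and 1 lower than in the DG. Of all probe sets, 4.68% were called in CA1 minus CA3, 10.9% in CA1 minus DG and 13.9% in CA3 minus DG. Rgs14, a regulator of G protein signalling, was higher in CA1 than in CA3 by 1.74 (SE 0.24). Gnao1 and Gng3, which encode G protein subunits abundant in neurons, were higher in CA1 than in the DG by 0.78 and 0.70 and higher in CA3 than in the DG by 0.94 and 0.73. Arrb1, an arrestin that ends receptor signalling, was lower in CA1 than in CA3 by 0.77.

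Of 36 second messenger enzymes, kinases and effector channels, 5 were higher and 1 lower in CA1 than in CA3. These counts were 7 and 6 in CA1 minus DG, and 6 and 6 in CA3 minus DG. The shares of all probe sets called were 4.68%, 10.9% and 13.9% in the same order. Kcnj3 and Kcnj6, subunits of the potassium channel that G proteins open, were higher in CA1 than in CA3 by 1.04 (SE 0.18) and 1.25 (SE 0.28). Prkcd, a protein kinase C and itself one of the CA3 markers, was lower in CA1 than in CA3 by 3.35. Pde1a and Prkca were higher in CA1 than in the DG by 2.67 and 1.15, and Pde1b and Prkacb were lower by 1.70 and 1.07.

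Of 31 genes for the synthesis, transport and breakdown of neuromodulators, 1 was higher and 2 were lower in CA1 than in CA3. Of all probe sets, 4.68% were called in this comparison. Abhd6 was higher by 0.93, while Mgll and Faah, which like Abhd6 break down endocannabinoids, were lower by 0.84 and 0.59. Slc29a4, a monoamine transporter, and Pdyn, the dynorphin precursor, were lower in CA1 than in the DG by 1.41 and 0.95. Of 18 receptor accessory genes, 1 was higher and 1 lower in CA1 than in CA3, beside the same 4.68%. In CA1 minus DG, Ly6h, Lynx1, Nptn and Reep1 were called higher and Lypd1, Nptx1, Ramp1 and Ramp2 lower, beside 10.9% of all probe sets. Of the genes for synthesis, transport and breakdown, Ache and Hnmt were higher and Entpd2, Pdyn and Slc29a4 lower in that comparison. Genes of both lists were also called in CA3 minus DG, beside 13.9% of all probe sets. Lypd1 and Lynx1 encode proteins that modulate nicotinic receptors, and they took different patterns. Lypd1 was higher in CA1 than in CA3 by 2.26 and lower in CA1 than in the DG by 1.66, and Lynx1 was higher in CA1 than in the DG by 1.49.

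Between genotypes, none of the 45 receptor genes passed the test in any of the 12 comparisons (3 pairs of genotypes, each within CA1, CA3 and DG and over the mouse means) or in the 3 tests of whether the rTg4510 minus tTA difference varied between subfields. The share of all probe sets called was 0% in 13 of these 15 comparisons and 0.00442% in rTg4510 minus tTA in CA3 and in rTg4510 minus DN in CA1. At an unadjusted p under 0.05, rTg4510 minus tTA held 4 receptor genes in CA1 (8.89% beside 3.97% of all probe sets), 3 in CA3 (6.67% beside 5.91%), 0 in the DG (beside 5.71%) and 2 in the mean (4.44% beside 5.35%). For tTA minus DN these were 1 (2.22% beside 4.59%), 3 (6.67% beside 6.13%), 0 (beside 5.21%) and 4 (8.89% beside 6.17%). For rTg4510 minus DN the counts were 2, 2, 0 and 0 beside 5.39%, 3.94%, 4.73% and 5.41% of all probe sets. The 3 tests between subfields held 2, 2 and 1 beside 4.15%, 4.82% and 6.42%. The comparisons share control mice, so that a high or low tTA group enters both rTg4510 minus tTA and tTA minus DN.

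**Figure D4:**
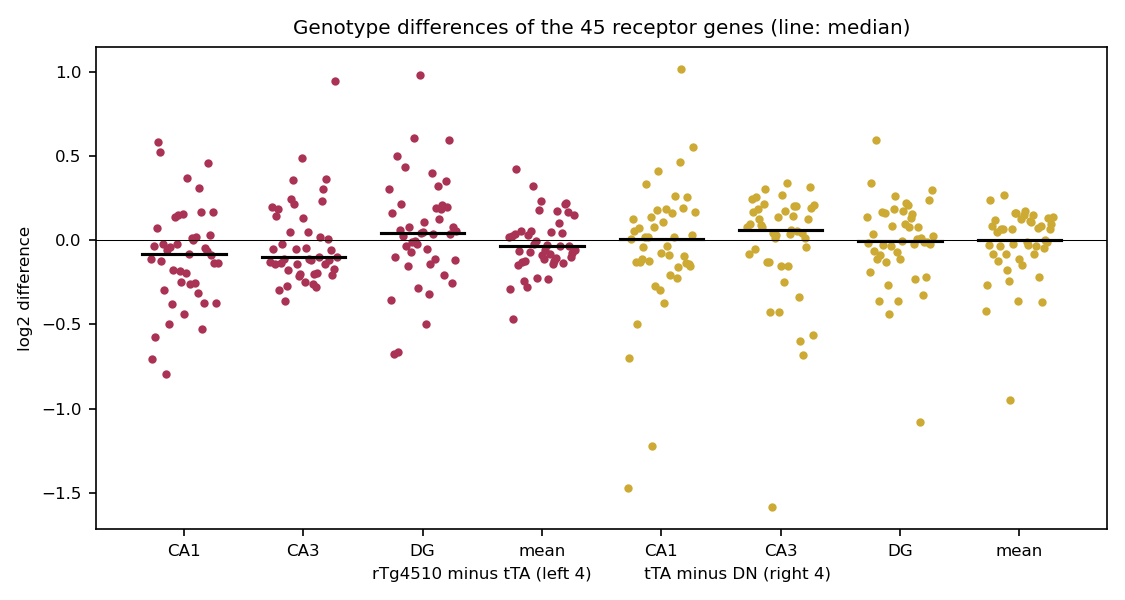
Differences in log2 signal for rTg4510 minus tTA and tTA minus DN for each of the 45 receptor genes (points), within CA1, CA3 and DG and over the mouse means, with the median as a line. Medians lie between -0.10 and 0.06, and the lowest points of these pairs are Chrm3 in tTA minus DN at -1.59 in CA3 and Htr1a in tTA minus DN at -1.47 in CA1.

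In the mean of the subfields, the receptor genes with the smallest p for rTg4510 minus tTA were Htr7, Chrna2, Htr1f, Drd2 and Htr2c. Htr7 was at 2.67, 1.97, 2.07, 2.23 and 1.86 in the 5 tTA mice and between 1.82 and 1.99 (median 1.87) in the 6 rTg4510 mice, so the groups overlapped. The difference was -0.28 (SE 0.12, 95% interval -0.53 to -0.02, limma, adjusted p = 0.911). Chrna2 was at -0.22 and Htr1f at -0.47, with 95% intervals from -0.43 to -0.01 and from -0.97 to 0.04. Drd2 was at 0.18 and Htr2c at 0.42, with intervals that included 0. Without the 5 arrays these 5 genes were at -0.28, -0.23, -0.39, 0.18 and 0.51 in the order named, and none passed.

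Htr2c, which activates phospholipase C, owed its difference mainly to rTg4510 mouse 4, at 4.27 beside 2.54 to 3.06 in the other 5 rTg4510 mice. For tTA minus DN in the mean of the subfields the genes were Oprl1 (-0.37), Chrna4 (-0.36), Chrm3 (-0.95), Htr7 (0.27) and Chrnb1 (0.15). Without the 5 arrays they were at -0.34, -0.31, -0.76, 0.34 and 0.16. Their adjusted p by limma over all arrays ran from 0.788 to 0.804, and tTA and DN mice overlapped in all of them.

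**Figure D5:**
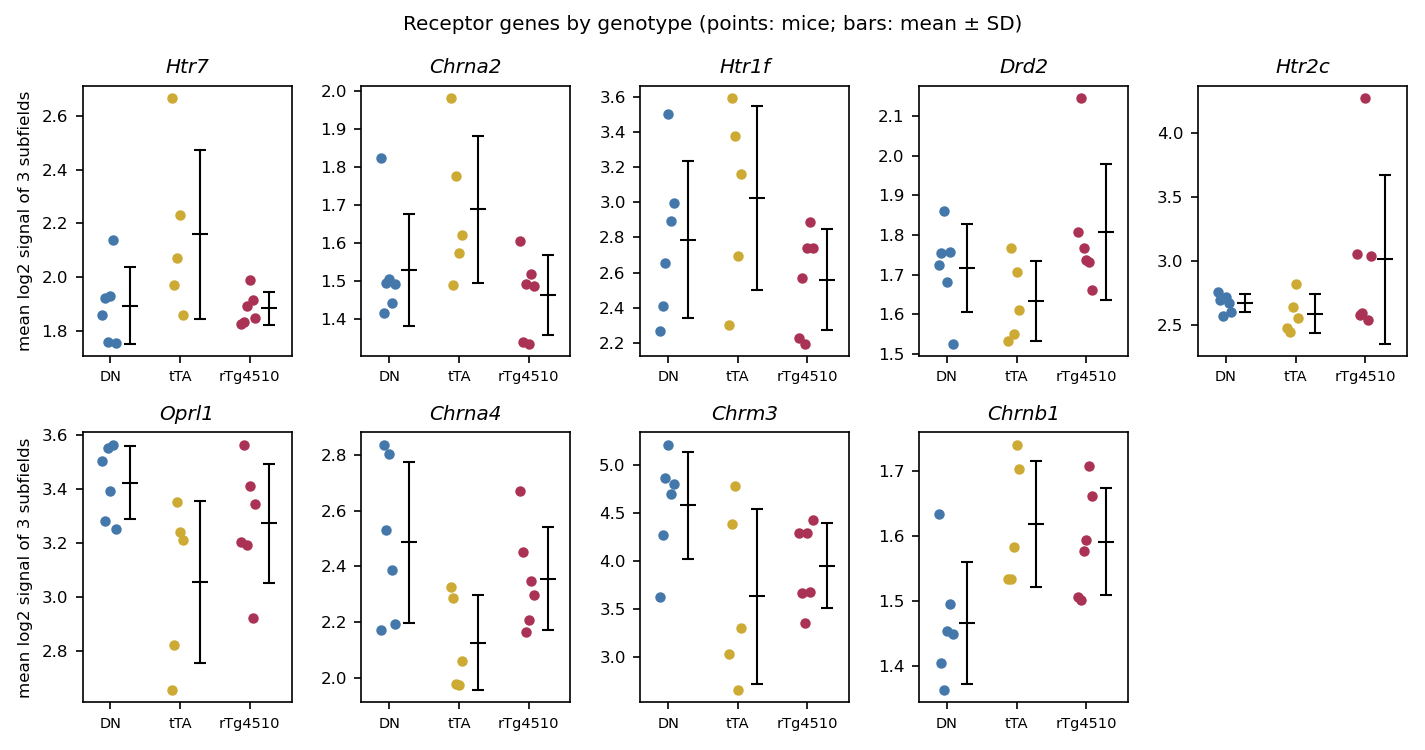
Mean log2 signal of the 3 subfields in each mouse for the 9 receptor genes with the smallest p in rTg4510 minus tTA or tTA minus DN, with the mean and SD per genotype. Groups overlap in every panel for these pairs, and rTg4510 mouse 4 stands at 4.27 for Htr2c.

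Chrm3 gave the largest genotype difference within CA3. The 6 DN mice ran from 5.51 to 6.77 with a median of 6.21, the 5 tTA mice were at 5.12, 6.24, 4.88, 3.90 and 2.57, and the 6 rTg4510 mice ran from 4.07 to 5.65 with a median of 4.65. DN mice were the highest, with 1 tTA mouse and 1 rTg4510 mouse inside their range. The tTA minus DN difference was -1.59 (SE 0.51, 95% interval -2.67 to -0.50, unadjusted p = 0.00669 and adjusted p = 0.779 by limma) and the rTg4510 minus DN difference was -1.37 (SE 0.49, adjusted p = 0.984). Without the 5 arrays that went against their labels these were -1.46 and -1.24.

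In CA1, Htr1a was highest in 3 of the 6 DN mice. DN mice were at 3.04, 2.92, 7.38, 6.29, 4.44 and 7.08, tTA mice at 2.83, 4.53, 3.92, 2.32 and 4.98, and rTg4510 mice at 3.22, 3.51, 2.81, 4.60, 4.34 and 3.14. The values above 5 were all in mice labelled DN, of which the array of DN mouse 4 at 6.29 is one whose Prnp went against its label, while other DN mice lay within the range of the other genotypes. The rTg4510 minus DN difference was -1.59 (SE 0.75, adjusted p = 0.923 by limma), and -1.37 (SE 0.79) without the 5 arrays. Without the 8 CA1 arrays, 3 mice labelled with each genotype remained, DN mouse 4 among them, and Htr1a was at 6.29 to 7.38 in DN, 3.92 to 4.98 in tTA and 3.51 to 4.60 in rTg4510 mice. The differences from DN were then -2.44 for tTA (adjusted p = 0.335) and -2.76 for rTg4510 (adjusted p = 0.110). Without DN mouse 4 as well, also chosen after seeing the data, 2 DN mice remained and the differences were -2.75 (adjusted p = 0.221) and -3.08 (adjusted p = 0.0929). Pou3f1 moved with them, at 8.18 to 8.38, 6.37 to 7.83 and 5.25 to 6.29 in the 9 arrays of DN, tTA and rTg4510 mice, and its part in the result was not tested.

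The genes with the smallest p for rTg4510 minus tTA within subfields were Htr2c and Drd4 in CA1, Htr5b and Cnr1 in CA3 and Drd2 and Chrna7 in the DG. Htr2c was at 0.58 (SE 0.21) and Drd4, a dopamine receptor that lowers cyclic AMP, at -0.53 (SE 0.22) in CA1. In CA3, Htr5b was at 2.01, 2.03, 2.54, 2.05 and 2.24 in tTA mice and between 1.65 and 1.98 in rTg4510 mice, which did not overlap, with a difference of -0.36 (SE 0.14, adjusted p = 0.819 by limma). The DN mice ran from 1.89 to 2.49, across both. Cnr1 was at 5.76, 4.09, 6.06, 4.07 and 5.49 in tTA mice and between 5.29 and 7.06 in rTg4510 mice, a difference of 0.95 (SE 0.38, adjusted p = 0.819). Drd2 was at 0.32 and Chrna7 at -0.50 in the DG, with 95% intervals that included 0, and without the 5 arrays they were at 0.31 and -0.61. The other 4 differences use none of the 5 arrays. Without the 8 CA1 arrays Htr2c was at 0.55 and Drd4 at -0.24 in CA1.

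The test of whether the rTg4510 minus tTA difference varied between subfields gave its smallest p among receptor genes for Drd4 in CA1 against CA3, at -0.76 (SE 0.27), and in CA1 against the DG, at -0.71 (SE 0.26). In CA1, Drd4 was at 2.66, 2.46, 2.45, 3.41 and 1.84 in tTA mice and between 1.77 and 2.41 in rTg4510 mice, and in CA3 at 1.90, 1.68, 2.73, 2.40 and 1.85 and between 1.96 and 3.19. The groups overlapped in both subfields. Chrna7 gave 0.87 (SE 0.35) for CA1 against the DG and Chrna3, a nicotinic subunit known from autonomic ganglia, -1.18 (SE 0.55) for CA3 against the DG. Adjusted p by limma for these genes was 0.775 or above. Without the 5 arrays the differences were -0.76 and -0.73 for Drd4, 0.84 for Chrna7 and -1.44 for Chrna3, and none passed. Besides Htr5b in rTg4510 minus tTA in CA3 (1 of 45 genes beside 0.659% of all probe sets whose groups did not overlap there), Chrnb1 was the only receptor gene whose groups did not overlap in a genotype comparison (1 of 45 beside 0.203%). It was at 1.40 to 1.53 in DN and 1.54 to 1.88 in rTg4510 mice in CA3, with a difference of 0.22 (SE 0.10) that did not pass. In these 15 comparisons, 0.164% to 0.659% of all probe sets had groups that did not overlap.

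No gene of the G protein, second messenger, neuromodulator metabolism or accessory lists passed in a genotype comparison. Among markers of other cells, none passed either. Oligodendrocyte markers were higher in rTg4510 than in tTA mice for 10 of 11 genes in CA1, all 11 in the DG and 10 in CA3, with medians of 1.13, 0.76 and 0.88. Microglia markers were higher for 12 of 13 genes in CA1, 5 in the DG and 8 in CA3, with medians of 0.68, -0.16 and 0.19. Astrocyte markers were higher for 11 of 11, 11 and 8 genes, with medians of 0.35, 0.27 and 0.14. Vascular markers were higher for 9 of 13, 13 and 10 genes, with medians of 0.06, 0.32 and 0.26. The share of all probe sets that were higher is not given beside these counts. In the DG, mean oligodendrocyte scores were -0.66 in tTA, -0.27 in DN and 0.13 in rTg4510 mice. Mean vascular scores there were -0.26, -0.02 and 0.34, so tTA mice were below DN mice in both. In CA1, tTA mice were above DN mice in both, at -0.07 beside -0.45 and 0.03 beside -0.18. In CA1, rTg4510 mouse 4 stood apart, with mean oligodendrocyte, microglia and astrocyte marker scores of 2.22, 1.59 and 1.32. The other rTg4510 mice ran from 0.48 to 1.21, from -0.20 to 0.49 and from -0.35 to 0.27. Interneuron markers had medians of 0.01, -0.14 and 0.10 in CA1, the DG and CA3. Their part in the receptor differences was not tested.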

How the data were processed

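Laser-captured CA1, CA3 and DG layers of 17 mice were measured on 51 arrays after Ovation Pico whole transcriptome amplification and Encore Biotin labelling. The authors deposited RMA signals, which are background-corrected, normalized and summarised per probe set, and the deposited numbers are log2 signals. The RMA software version is not given in the sources used here. RMA draws low signals together, so that differences of dim genes are understated, and the number of arrays limits the precision.

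Groups came from the labels. After removal of 90 controls, 22626 probe sets entered the tests with no filter. The platform table gave 1 symbol for 18003 of them, several for 287 and none for 4336. The Prnp probe set was named from the study's supplementary lists. The receptor genes and the other gene lists were chosen with earlier results of these data known, as were the label checks. Named were the members called between subfields, the 5 with the smallest p in rTg4510 minus tTA and in tTA minus DN over the mean of the subfields, the 2 with the smallest p per subfield in rTg4510 minus tTA, and up to 4 called genes per other list and comparison. Others, such as Htr1a and further called genes of the other lists, were chosen after their values were seen.

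Limma 3.58.1 in R 4.3.3 was used on the log2 signals with Benjamini-Hochberg adjustment at 0.05. For subfields the mouse entered as a block, because each animal gave 3 arrays, whose estimated correlation was 0.0454. Genotypes were fitted together within a subfield, on mouse means and on mouse differences between subfields. Alternatives covered array weights, an intensity trend, centring, removal of probe sets under the 40th percentile, quantile normalization, 1 probe set per gene, only 2 genotypes, the methods' Fisher's LSD on log2 and linear signals, other uses of the block, each mouse left out and sets of 5, 7, 8 or 9 arrays left out. The fits were tested on simulated data. No pair of arrays correlated above 0.979. Python 3.11.15 and matplotlib 3.10.9 drew the figures.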

Additional observations from a re-analysis of the deposited data

Results flagged for a closer look

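Of 144 groups of 5 or 6 arrays examined for the 16 genes named by the rule, 18 held an array far from the others of its group. The cut-off flags about 1 group in 20 where values are normally distributed. The 16 genes were picked for calls or small p, and most were dim. The rate over all probe sets was not computed, so this count cannot be read as an excess. In CA1 these were Cnr1 at 2.329 in DN mouse 1, beside 5.93 to 6.47 in the other DN mice, and Oprd1 at 2.017 in the same array, whose Chrm3 signal was also the lowest of the DN group at 2.65. In CA3 they were Htr2c at 4.03 and Drd4 at 3.192 in rTg4510 mouse 4, and Chrna4 at 4.765 in DN mouse 4, whose Prnp went against its label.

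The other 13 values were of the DG, from 8 arrays. Htr1b was at 3.343 in DN mouse 6, at 1.432 in rTg4510 mouse 2 and at 3.218 in tTA mouse 3. Htr1f was at 3.843 in DN mouse 4 and at 4.179 in tTA mouse 2. Htr4 was at 4.142 in rTg4510 mouse 5 and at 2.682 in tTA mouse 1, and these arrays enter its call against CA3. Htr2c was at 5.471 in rTg4510 mouse 4, Chrm3 at 3.703 in tTA mouse 3, Chrna2 at 2.76 in tTA mouse 1 and Chrnb1 at 1.885 in rTg4510 mouse 5. Drd2 was at 2.186 in DN mouse 4 and at 2.425 in rTg4510 mouse 2.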

How the results depend on the processing

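The calls of Chrm3 in CA1 and CA3 against the DG, of Htr1f and Oprd1 in CA1 against the DG and of Oprd1 in CA1 against CA3 were kept under every alternative run. With array weights, 7 receptor genes were called in CA1 minus CA3 (6 higher, 1 lower) beside 7.13% of all probe sets and 7 in CA1 minus DG beside 13.9%. In CA1 minus CA3, 1 was called without the 5 arrays, beside 4.32% of all probe sets. The count was 1 without 7 arrays (the 5 and the other arrays of DN mouse 5). It was 6 without the 8 CA1 arrays, beside 5.08%, a fit chosen after seeing the data. For the fit without 7 arrays and those that follow, the share of all probe sets is not given. Whether a count fell more than that share was not tested. Leaving out 1 mouse at a time gave 1 to 3 called genes in CA1 minus CA3, 3 to 6 in CA1 minus DG and 1 to 3 in CA3 minus DG, and 0 in each genotype comparison. The CA3 minus DG count fell to 1 without DN mouse 1 or rTg4510 mouse 5, and the CA1 minus CA3 count fell to 1 without any 1 of 7 mice (DN 3, 4 and 6, rTg4510 2 and 4, tTA 2 and 5). Without the mouse as a replicate block the subfield counts were 2, 4 and 2, in which Htr1b (adjusted p = 0.0617) and Htr4 (0.0543) were lost, and with it as a random block they were 3, 4 and 2. Mouse numbers were names only between genotypes, so no pairing of genotypes was possible. Htr1f against CA3 was lost with quantile normalization (0.0647) and without 5 or 7 arrays (0.0986 and 0.109), and without any 1 of 9 mice. Htr1b was lost with centring (0.0567) and without 5 or 7 arrays (0.0924 and 0.0943), Htr4 with centring (0.0980) and the random block (0.0686), Oprl1 and Chrna7 without 7 arrays (0.0537 and 0.0502). The causes were not tested. The methods' Fisher's LSD on log2 signals gave 0 to 5 receptor genes per genotype comparison at an unadjusted p under 0.05 and 0 after Benjamini-Hochberg. No direction of a called gene was reversed, and no receptor gene was called between genotypes under any alternative. Most receptor genes had signals near the bottom of the range, where small changes may not be measurable.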
